A study of Mus musculus with 4 samples.

Results

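The T cells of the mouse kidney were followed through the first week of glyoxylate exposure in 4 droplet single-cell RNA libraries. A barcode was counted as a T cell when it held at least 2 unique molecular identifiers (UMIs, each standing for 1 captured transcript) of Cd3d, Cd3e and Cd3g summed, none of the B cell genes Cd79a and Ms4a1, and at most 1 of the macrophage genes C1qa, C1qb and C1qc. Of 60670 deposited barcodes, 56471 reached 500 UMIs and had no more than 50% of them from mitochondrial genes, and 1094 of these met the rule. The cells were thus selected on their levels of Cd3d, Cd3e, Cd3g, Cd79a, Ms4a1 and C1q transcripts, which are given as a description only.

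The kidneys came from male C57BL/6 mice of 6 to 8 weeks, labelled as renal cells, which had been injected intraperitoneally with glyoxylate for 0, 1, 4 or 7 successive days (D0, D1, D4 and D7). Glyoxylate is a precursor of oxalate and is used to load the mouse kidney with calcium oxalate. The tissue was dissociated with trypsin and DNase and passed through a strainer, red blood cells were lysed, and 3' libraries were made with a 10x Genomics kit. Each day has 1 library, the labels do not say how many mice it pools, and no day has a replicate, so a difference between days is a difference between these libraries and carries no p-value. All intervals below are exact 95% intervals that cover counting error only, and D1, D4 and D7 are compared with the same D0 library.

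T cells recognise peptide on MHC molecules through the T cell receptor, whose signal is passed on by the CD3 chains. CD8 T cells carry Cd8a and Cd8b1 and, once primed, make granzymes, interferon gamma and the chemokine Ccl5. CD4 T cells help other leukocytes, for example through CD40 ligand. Naive T cells recirculate through lymphoid organs with the help of Il7r, Ccr7 and S1pr1 under the transcription factors Tcf7, Lef1 and Klf2, while effector and resident memory cells stay in tissue.

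The label fits the cells on genes that the rule did not use. Ms4a4b, a membrane protein of T cells, stood at 1122, 1395, 495 and 492 CPM (the summed UMIs of the gene scaled to the total UMIs of the T cells) at D0, D1, D4 and D7, and below 1 CPM in proximal tubule barcodes of every day. Those tubule barcodes were chosen without Cd3 and Ptprc UMIs, which leaves out barcodes that carried these T cell transcripts. Ms4a4b was detected in 91.3%, 95.8%, 83.2% and 88.1% of T cells. The kinase Lck, which starts T cell receptor signalling, stood at 283, 328, 138 and 128 CPM. At the edge of the rule, the 33 D0 barcodes with 2 Cd3 UMIs held 814 CPM of Ms4a4b and the 90 barcodes with 1 held 102 CPM, while at D7 the 35 with 2 held 303 CPM. Of 12 natural killer (NK) cell markers, which include Gzma and Xcl1, 9, 12, 9 and 8 had UMIs in T cells, and their summed level was 972, 1250, 1014 and 631 CPM, highest at D1. Ncr1 and Klra8 were at 0 at D0, D4 and D7. The B cell marker list summed to 39.1, 135, 570 and 251 CPM. Transcripts of T cell receptor chains were not analysed here, no doublet caller was run, and the rule on B cell and C1q transcripts removed 4, 8, 11 and 12 barcodes that had at least 2 Cd3 UMIs. The libraries shared 374 barcode sequences among themselves, and none was a T cell in more than 1 library. Whether any was a T cell in 1 library was not counted.

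The T cells summed to 1023178, 2140122, 1040919 and 935585 UMIs, with medians of 2689.5, 3338, 4856.5 and 5435 UMIs per cell. The libraries differed in how far down in depth barcodes were deposited: the lowest barcode held 500 UMIs at D0 and at D1 but 2919 at D4 and 2773 at D7. The median mitochondrial share of T cells was 6.78%, 4.86%, 12.6% and 13.8%. D4 and D7 thus stand apart from D0 and D1 in depth, mitochondrial share and, below, carried tubule RNA, and these cannot be told apart from the day of exposure.

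T cells were the most frequent at D1. They made up 276 of 14485 barcodes at D0, or 1.91% (1.69 to 2.14), and 477 of 11428 at D1, or 4.17% (3.81 to 4.56). At D4 they were 190 of 16103, or 1.18% (1.02 to 1.36), and at D7 151 of 14455, or 1.04% (0.885 to 1.22). The D1 share was 2.19 (1.89 to 2.55) times the D0 share and the intervals do not overlap. The ratio at D4 was 0.619 (0.512 to 0.748) and at D7 0.548 (0.447 to 0.671).

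The D4 and D7 shares relative to D0 changed with the floor on depth. Counting only barcodes with at least 3000 UMIs, the T cell share was 1.11%, 3.94%, 1.18% and 1.03%. On that floor the D1 ratio was 3.57 (2.85 to 4.49), while D4 at 1.06 (0.835 to 1.36) and D7 at 0.932 (0.720 to 1.21) could not be distinguished from D0. A stricter subset, chosen after the data were seen, holds T cells with at least 3000 UMIs and at most 2 UMIs of the proximal tubule genes Slc34a1 and Lrp2. It has 53, 232, 47 and 37 cells, with medians of 3684, 3840, 3752 and 4409 UMIs, and is called the restricted subset below. It keeps 53 of 109, 232 of 294, 47 of 185 and 37 of 141 T cells of that depth. Its share was taken of all barcodes with at least 3000 UMIs, which had no limit on Slc34a1 and Lrp2. That share at D1 was 5.79 (4.28 to 7.96) times that of D0, and those of D4 and D7 were 0.556 (0.367 to 0.839) and 0.503 (0.321 to 0.780) times. Since the limit falls on T cells alone, these ratios also hold the difference in tubule UMIs of T cells between days. The higher share at D1 was thus seen with every gate tried, and the lower shares at D4 and D7 were not seen with the floor of 3000 UMIs alone. In a share of barcodes, more T cells and fewer other cells cannot be told apart.

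**Figure D1:**
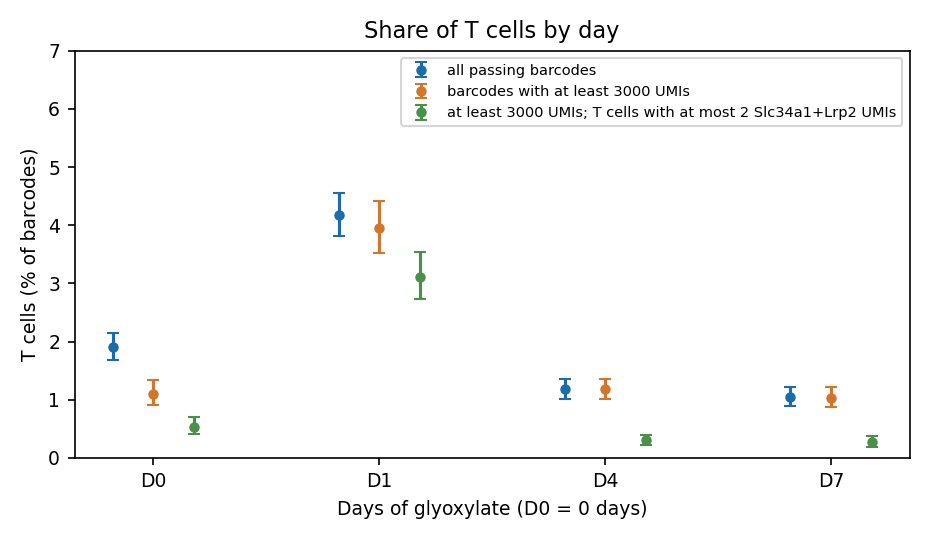
Share of T cells among barcodes in percent, by day, with exact 95% binomial intervals, for all passing barcodes, for barcodes with at least 3000 UMIs, and for the restricted subset. The restricted subset is divided by all barcodes with at least 3000 UMIs, so the limit on Slc34a1 and Lrp2 falls on T cells alone. D1 is highest in each, at 4.17% with the rule as given, while the order of D0, D4 and D7 changes with the floor of 3000 UMIs.

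Transcripts of the proximal tubule, the most abundant epithelium in these libraries, were present in the T cell barcodes. Slc34a1, the phosphate transporter of the tubule brush border, stood at 1030, 566, 1911 and 1747 CPM in T cells, which is 32.2%, 24.6%, 64.7% and 68.3% of its level in proximal tubule barcodes. Lrp2, the endocytic receptor megalin, stood at 251, 145, 412 and 490 CPM, or 36.0%, 27.0%, 67.0% and 78.4% of the tubule level. Both transcripts are known from tubule epithelium and are called carried RNA here. Whether they came from free RNA or from cells caught together was not tested. The load was smallest at D1. T cells with at least 3 UMIs of the pair were 22.5% at D0, 13.4% at D1, 74.2% at D4 and 70.2% at D7. The pair's level in the restricted subset is set by its own limit on the pair. Over 16 tubule markers, most of them no part of that limit, the median level in the subset was 5.91%, 4.96%, 14.1% and 8.74% of the tubule level, so carried RNA of these markers was uneven between days there too, highest at D4. Kap, an abundant tubule transcript, was 6.38 times D0 at D4 and 2.06 times at D7 in it. The summed level of 20 leukocyte genes such as Ptprc in all T cells was 8591, 10200, 4705 and 4570 CPM. Levels set relative to those 20 genes are called the leukocyte scale, on which the median of all measured genes at D4 and D7 moved up by 0.76 and 0.82 log2 units against D0. Fewer T cell transcripts in a barcode and more carried RNA cannot be told apart from the CPM alone.

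**Figure D2:**
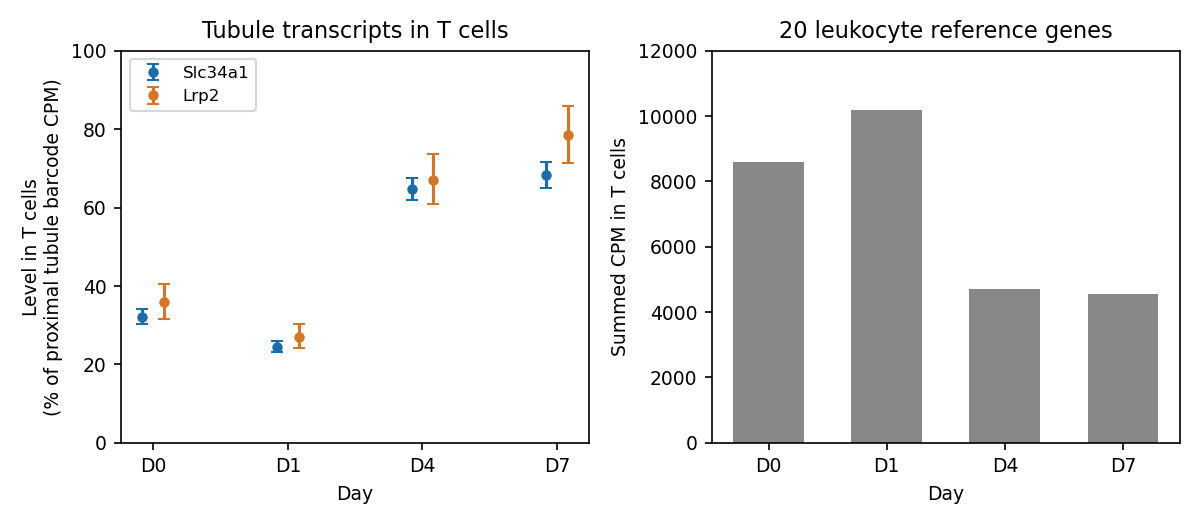
Left, level of Slc34a1 and Lrp2 in T cells by day, in percent of their CPM in proximal tubule barcodes of the same library, with exact 95% intervals of the T cell counts. Right, summed CPM of 20 leukocyte genes in T cells. D1 is lowest on the left (24.6% for Slc34a1) and highest on the right (10200 CPM), and D4 and D7 lie apart from D0 on both sides.

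Counted over all UMIs, T cells with a Cd8a UMI and no Cd4 UMI outnumbered those with the reverse on every day. The Cd8a-only cells numbered 64, 165, 55 and 31, and the Cd4-only cells 34, 90, 13 and 23. Cells with both numbered 0, except for 2 at D1, and the remaining 178, 220, 122 and 97 held neither. Since detection of such low transcripts follows depth, each cell was also thinned to 1000 UMIs, which left out 6 shallower cells at D0 and 27 at D1. After thinning, Cd8a-only cells were 12.6% (8.88 to 17.1), 14.2% (11.1 to 17.8), 5.79% (2.93 to 10.1) and 3.31% (1.08 to 7.56) of T cells, against 23.2%, 34.6%, 28.9% and 20.5% unthinned. Cd4-only cells were 2.22%, 7.33%, 1.05% and 2.65% after thinning. The thinned shares at D4 and D7 rest on 11 and 5 Cd8a-only cells and stand beside the larger carried load there. Background in barcodes chosen without Cd3 UMIs was low: 4 of 10576 proximal tubule barcodes at D0 (0.0378%) and 0 of 193 B cells, which allows up to 1.55%, held a Cd8a UMI after thinning. Barcodes that carried Cd3 transcripts are left out of this background by that choice.

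The balance between the classes was compared within the cells that had either transcript. Cd8a-only cells were 65.3% (55.0 to 74.6), 64.7% (58.5 to 70.6), 80.9% (69.5 to 89.4) and 57.4% (43.2 to 70.8) of the cells with either. Cd8a UMIs were 2.96 (2.08 to 4.26) times the Cd4 UMIs at D0, 2.76 (2.27 to 3.37) times at D1, 6.62 (3.67 to 12.9) times at D4 and 1.79 (1.10 to 2.95) times at D7. For this UMI ratio, the D4 interval overlaps that of D0 but not that of D7, while the intervals of the shares overlap between D4 and D7. Unthinned, the D0 and D1 intervals overlap in both measures. After thinning, Cd8a-only cells were 85% (70.2 to 94.3) of the cells with either at D0 and 66.0% (55.7 to 75.3) at D1, and the Cd4-only share of T cells was 2.22% (0.820 to 4.77) at D0 and 7.33% (5.10 to 10.1) at D1. The thinned intervals overlap for the first share and do not for the second. The D0 values rest on 34 Cd8a-only and 6 Cd4-only cells. Cd8b1, the partner chain of Cd8a and no part of the split, was detected in 85.9%, 93.3%, 81.8% and 87.1% of Cd8a-only cells. It was detected in 0 of 34 Cd4-only cells at D0, which allows up to 8.82%, and in 4.44% at D1. Among cells with neither transcript, Cd8b1 was found in 24.2% at D0 and 19.1% at D1, so that group holds cells with a CD8 chain too.

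The classes differed in effector and helper genes. At D1, Ccl5 stood at 13480 CPM in Cd8a-only and 2473 CPM in Cd4-only cells, a ratio of 5.45 (5.12 to 5.82). The cytotoxic protease Gzmb was 13.9 (8.00 to 26.3) times, Gzma 3.40 (2.90 to 4.01) times and Gzmk 16.1 (6.15 to 60.1) times as high in Cd8a-only cells. Cd4-only cells had the higher levels of the helper and costimulatory genes. Tnfrsf4, which encodes OX40, had 49 UMIs in Cd4-only and 0 in Cd8a-only cells, CD40 ligand (Cd40lg) was 0.0878 (0.0400 to 0.174) times as high in Cd8a-only cells, and the costimulator Icos 0.374 (0.271 to 0.514) times. Because the cells of a class come from 1 library, these ratios have no replicate either.

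The shares of cells with an effector transcript, thinned to 1000 UMIs, kept this order on each day for Ccl5. It was detected in 68.8%, 79.4%, 78.2% and 71.0% of Cd8a-only and in 20.6%, 31.0%, 23.1% and 26.1% of Cd4-only cells. Gzmb was detected in 17.2%, 28.8%, 23.6% and 16.1% of Cd8a-only cells. Among Cd4-only cells it was found in 0 of 34 at D0, which allows up to 8.82%, in 4.60% at D1, in 0 of 13 at D4, which allows up to 23.1%, and in 4.35% at D7. The Cd8a-only intervals of Ccl5 and of Gzmb overlap across the 4 days. Among proximal tubule barcodes of D0 and D1, 0.794% and 2.30% held a Ccl5 UMI and 0.0284% and 0.0927% a Gzmb UMI. Whether these came from free RNA or from cells caught together was not tested.

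**Figure D3:**
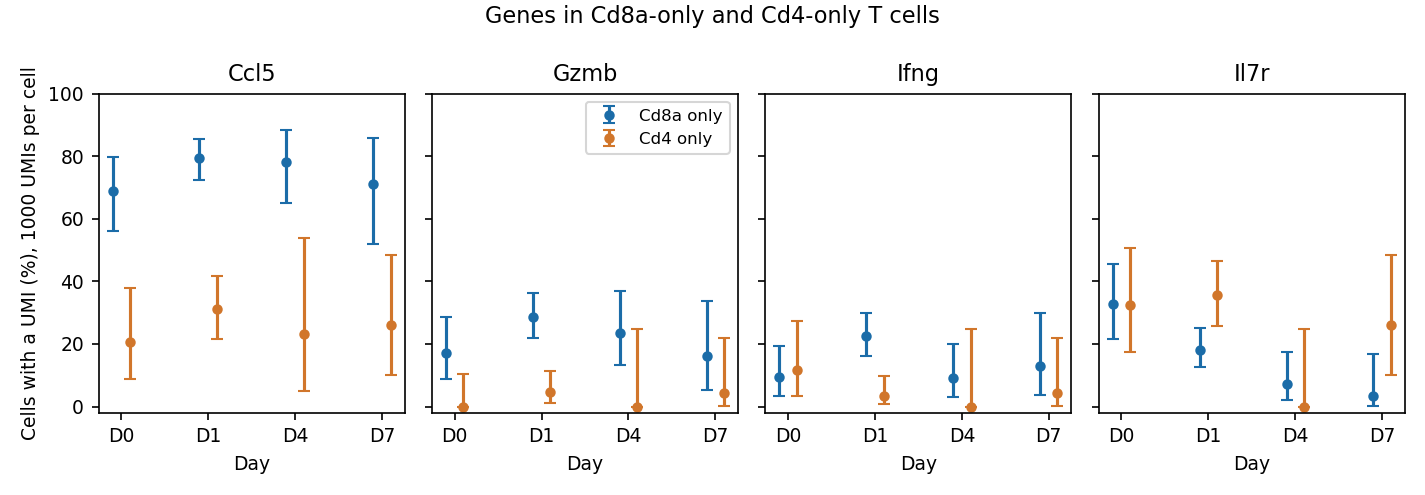
Percent of Cd8a-only and Cd4-only T cells with at least 1 UMI of Ccl5, Gzmb, Ifng or Il7r, by day, each cell thinned to 1000 UMIs, with exact 95% binomial intervals. Ccl5 lies at 68.8% to 79.4% in Cd8a-only cells and at 20.6% to 31.0% in Cd4-only cells, and Il7r in Cd8a-only cells lies at 32.8% at D0 and 3.23% at D7. Thinning does not remove carried tubule RNA, which was larger at D4 and D7.

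At D1, with the least carried tubule RNA, the T cells were close to those of D0 in most genes. A gene was measured when D0 and D1 together held 40 UMIs of it or more. Of 6552 measured genes, 14 (0.214%) were at least 2-fold higher and 13 (0.198%) at least 2-fold lower than at D0, with 10 CPM added to each level. On the leukocyte scale, which moved the median of all genes to -0.13 log2 units, 7 (0.107%) were higher and 29 (0.443%) lower. The highest included Pdcd1, which encodes the inhibitory receptor PD-1, Cd160 and Klrk1 of the receptors that tune CD8 and NK cell activity, the transcription factor Stat4, which carries interleukin 12 signals, and the cytokine feedback inhibitor Socs3. The lowest included the histone genes Hist1h1b and Hist1h2ae, the mitosis gene Top2a, and Dapl1.

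Pdcd1 lies at chr1:94038305-94052553 on the minus strand (mm10). It had 6 UMIs in 6 of 276 cells at D0, 70 UMIs in 40 of 477 cells at D1, 6 UMIs at D4 and 8 at D7. The levels were 5.86, 32.7, 5.76 and 8.55 CPM. D1 is high and the other days lie together over all T cells. The D1 level was 5.58 (2.44 to 15.7) times that of D0 and the D4 level 0.983 (0.263 to 3.68) times. After thinning, Pdcd1 was detected in 0.741% (0.0898 to 2.65) of T cells at D0 and 4.00% (2.39 to 6.25) at D1. It was not confined to a class: it went from 0 UMIs at D0 to 22 in Cd8a-only and 24 in Cd4-only cells at D1, where the level was 26.2 and 57.1 CPM. In the restricted subset 1 UMI at D0 stood against 41 at D1, a ratio of 9.69 with a wide interval of 1.65 to 392. D7 was near D1 in that subset, with levels of 3.94, 38.2, 15.3 and 34.5 CPM and a D7 ratio of 8.77 (1.06 to 403) from 6 UMIs. Pdcd1 at D7 thus depends on which T cells are counted.

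Stat4 had levels of 40.1, 88.3, 30.7 and 34.2 CPM, and its D1 level was 2.20 (1.56 to 3.17) times that of D0. Socs3 had 22.5, 51.9, 19.2 and 62.0 CPM, so it was higher at D1 and again at D7. Cd160 had 25.4, 58.4, 18.2 and 7.48 CPM and Klrk1, the activating receptor NKG2D, 80.1, 159, 57.6 and 36.3 CPM. All 4 were also higher at D1 in the restricted subset, at 2.60, 3.11, 2.60 and 2.19 times D0. There, Itgb1, the integrin beta chain that holds effector cells to matrix, was 2.65 (1.92 to 3.74) times and Nfkbia, the inhibitor that NF-kappaB itself switches on, 2.21 (1.58 to 3.17) times D0, against 1.77 and 1.54 in all T cells. Other genes high at D1 in all T cells were Ccl3 at 2.54 times, Gem at 3.83 times, the interferon-stimulated gene Rtp4 at 3.35 times and the inflammatory caspase Casp4 at 4.30 times. Those of Gem, Rtp4 and Casp4 rest on 7, 9 and 4 UMIs at D0.

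**Figure D4:**
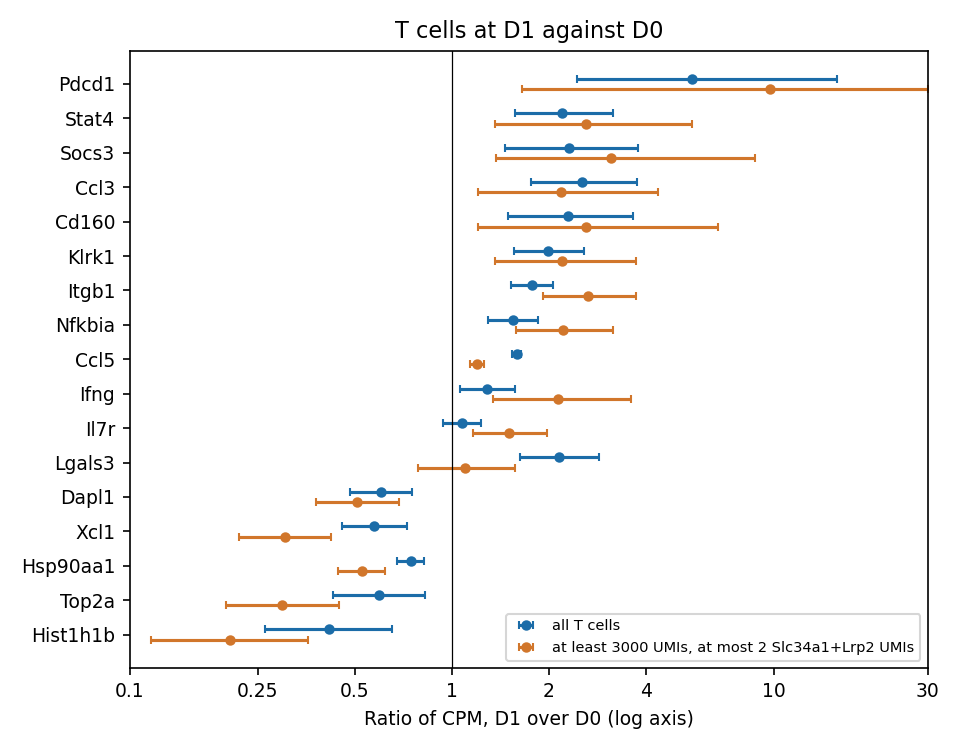
Ratio of the D1 to the D0 level (CPM) for named genes on a log axis, with exact 95% intervals, in all T cells and in the restricted subset. Pdcd1, Stat4 and Cd160 lie above 1 and Dapl1 and Xcl1 below 1 in both, while Lgals3 lies at 2.15 and 1.10. The upper end of the interval in the restricted subset of Pdcd1, at 392, lies beyond the axis.

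Part of the D1 profile changed in the subset, which differs in both depth and tubule UMIs. With the limit on Slc34a1 and Lrp2 alone, Gzma was 1.005 (0.916 to 1.10), Gzmb 1.21 (0.988 to 1.5) and Lgals3 1.72 (1.27 to 2.36) times D0. Gzma stood at 708, 936, 794 and 435 CPM, so D1 was 1.32 (1.21 to 1.44) times D0, yet in the restricted subset it was 0.680 (0.601 to 0.770) times. At D0 its 724 UMIs came from 32 cells, 105 of them from 1 cell. In the restricted subset its 347 UMIs at D0 came from 10 of 53 cells, 105 of them from 1. Every Gzma ratio of the subset, also those of D4 and D7, rests on that D0 value. Gzmb likewise was 1.54 (1.28 to 1.87) times D0 in all T cells and 0.813 (0.624 to 1.07) in that subset. The lectin gene Lgals3 was 2.15 (1.63 to 2.87) times D0 and 1.10 (0.783 to 1.57) in the subset. Ccl5 kept its direction, with 4980 CPM at D0 and 7920 at D1, a ratio of 1.59 (1.54 to 1.64), and 1.20 (1.14 to 1.26) in the subset.

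Of 28 measured cytotoxic and effector genes, 1, Ccl3, was at least 2-fold higher at D1 and none lower, and the list had a median log2 ratio of 0.34 against 0.06 for all genes. In the restricted subset 90 of 3548 genes (2.54%) were at least 2-fold higher and 31 (0.874%) lower. Of 26 cytotoxic genes there, Ifng and Klrk1 were higher and Xcl1 lower, with a median of 0.10 against 0.03. Beside these, the 6 measured NK cell markers had a median of 0.54 at D1 in all T cells, and the part of NK cells in the values of Klrk1 and Cd160 was not tested. Ifng, the cytokine interferon gamma, depended on the class. In Cd8a-only cells it went from 21 UMIs (85.3 CPM) at D0 to 252 UMIs (300.2 CPM) at D1, a ratio of 3.52 (2.25 to 5.78). In Cd4-only cells the ratio was 0.614 (0.352 to 1.11), with 20 and 41 UMIs. The intervals of both ratios do not overlap. After thinning, 9.38% (3.52 to 19.3) of Cd8a-only cells at D0 and 22.5% (16.3 to 29.8) at D1 held an Ifng UMI. In all T cells Ifng was only 1.29 (1.06 to 1.57) times D0. Ccl5 was 1.31 (1.26 to 1.37) times D0 in Cd8a-only and 2.94 (2.40 to 3.62) times in Cd4-only cells. Classes were set on all UMIs, so they hold deeper cells than the rest.

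B cells and NK cells of the same libraries were compared at D1 in the same way, from 198 and 242 B cells and 34 and 70 NK cells at D0 and D1. Their carried tubule RNA, as the median of 16 tubule markers, was 50.4% and 43.3% of the tubule level in B cells and 58.4% and 19.2% in NK cells, against 37.8% and 27.0% in T cells. Ifng was 3.03 (2.00 to 4.71) times and Ccl5 1.41 (1.33 to 1.5) times D0 in NK cells, and Klrk1 2.54 (1.90 to 3.43) times, all in CPM. In NK cells, however, 163 of 1273 measured genes (12.8%) were at least 2-fold higher and 162 (12.7%) lower at D1, and the summed level of the leukocyte genes was 5609 CPM at D0 and 11271 at D1. Relative to those genes Ifng was 1.51, Klrk1 1.26 and Ccl5 0.704 times D0 in NK cells, against 1.08, 1.67 and 1.34 in T cells. In CPM, Stat4 was 1.44 (0.699 to 3.15) times D0 in B cells and 2.00 (1.03 to 4.12) times in NK cells. Xcl1, the chemokine lymphotactin that draws cross-presenting dendritic cells, differed in direction in CPM only. It was 0.574 (0.456 to 0.723) times D0 in T cells and 1.55 (1.13 to 2.13) times in NK cells. Their intervals do not overlap, but of 140 Xcl1 UMIs in D0 T cells 30 came from 1 cell, and without the top cell of each day the T cell ratio was 0.630. Relative to leukocyte genes it was 0.483 times D0 in T cells and 0.770 times in NK cells.

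Dapl1, a gene of the naive list, and Xcl1 were lower than at D0 on each later day. Their promoters, and that of Il7r, the interleukin 7 receptor gene that was low at D4, are shown because forkhead factors such as Foxo1 act in naive and T-box factors such as Tbx21 in effector T cells. Dapl1 and Xcl1 were chosen after their matches were seen. Each sequence is from RefSeq (build GRCm38.p6), from 250 bases before to 50 after the gene start, 5' to 3' on the gene's strand, with the forkhead core GTAAACA or the T-box motif GGTGTGA in capitals. They are chr2:59484403-59484702 on the plus strand for Dapl1, chr15:9529827-9530126 on the minus strand for Il7r and chr1:164935473-164935772 on the minus strand for Xcl1.
Dapl1: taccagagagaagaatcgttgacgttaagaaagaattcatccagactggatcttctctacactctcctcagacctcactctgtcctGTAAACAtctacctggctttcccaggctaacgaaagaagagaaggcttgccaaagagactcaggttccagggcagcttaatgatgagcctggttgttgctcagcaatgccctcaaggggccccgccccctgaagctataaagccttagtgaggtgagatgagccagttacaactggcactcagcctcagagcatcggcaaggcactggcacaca
Il7r: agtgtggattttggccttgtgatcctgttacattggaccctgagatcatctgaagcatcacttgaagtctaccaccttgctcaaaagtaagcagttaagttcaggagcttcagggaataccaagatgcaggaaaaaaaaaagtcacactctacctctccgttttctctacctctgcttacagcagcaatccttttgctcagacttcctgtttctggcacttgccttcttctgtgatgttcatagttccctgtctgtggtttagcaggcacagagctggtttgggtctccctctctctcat
Xcl1: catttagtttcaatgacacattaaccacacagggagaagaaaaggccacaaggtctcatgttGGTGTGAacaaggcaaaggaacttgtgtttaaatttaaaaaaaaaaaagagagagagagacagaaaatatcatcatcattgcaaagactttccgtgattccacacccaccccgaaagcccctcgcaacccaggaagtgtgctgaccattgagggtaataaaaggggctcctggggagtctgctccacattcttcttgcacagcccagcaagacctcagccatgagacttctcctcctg
On either strand, GTAAACA was found in 2 of 25 promoters of the naive list (8%, those of Dapl1 and Tcf7) and in none of 28 of the cytotoxic list, against 3.65% of 32851 promoters. GGTGTGA was found in 4 of 28 promoters of the cytotoxic list (14.3%, those of Gzmk, Gzmm, Nkg7 and Xcl1) and in none of 25 of the naive list, against 3.98% of all. No printed sequence holds both motifs, Il7r holds neither in this window, and a match is a description of letters only.

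Dapl1 had 146, 184, 34 and 21 UMIs and levels of 143, 86.0, 32.7 and 22.4 CPM. The level was highest at D0 and lowest at D7. The D1 ratio was 0.603 (0.482 to 0.754), the D4 ratio 0.229 (0.153 to 0.334) and the D7 ratio 0.157 (0.0945 to 0.249). In the restricted subset the ratios were 0.508, 0.210 and 0.215, with Dapl1 found in 16, 42, 6 and 5 cells, and on the leukocyte scale 0.507, 0.418 and 0.296. At D1 it was 0.442 (0.313 to 0.630) times D0 in Cd8a-only cells and 1.20 (0.511 to 3.25) times in Cd4-only cells. Xcl1 had levels of 137, 78.5, 18.2 and 21.4 CPM, with D4 and D7 at 0.133 and 0.156 times D0 and at 0.210 and 0.150 times in the restricted subset. The Xcl1 ratios of the subset rest on few D0 cells, as its 68 UMIs there came from 5 of 53 cells, 30 of them from 1.

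No naive and recirculating gene of 18 measured was past 2-fold at D1, with a median log2 ratio of 0.14. In the restricted subset none of 17 was either, but the median was 0.38 and Tcf7 at 1.85 (1.21 to 2.96), S1pr1 at 1.75 (1.14 to 2.81), Il7r at 1.51 (1.17 to 1.97) and Klf2 at 1.37 (1.22 to 1.56) times D0 had intervals above 1. With the limit on Slc34a1 and Lrp2 alone, the intervals of all 4 included 1. In all T cells at D0 and D1, Il7r had 296 and 318 CPM, Ccr7, which guides T cells to lymph nodes, 112 and 108 CPM, and Lef1 133 and 130 CPM. At D4 they were lower: Il7r had 72.0 CPM, Ccr7 29.8, Lef1 30.7, Tcf7 26.9 and Klf2 404 CPM against 1224 at D0. At D4, 192 of 5168 measured genes (3.72%) were at least 2-fold lower and 190 (3.68%) higher. Of 17 measured naive genes 13 were lower and none higher, with a median log2 ratio of -1.35 against 0.02 for all genes.

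Carried tubule RNA stood at its higher level beside that count. Set relative to leukocyte genes, 10 genes (0.193%) were lower at D4 and 1735 (33.6%) higher. On that scale the naive list had 3 genes lower and 1 higher and a median of -0.63, while that of all genes was 0.76. Among the 10 were Il7r, Lef1, Cd28, Dapl1, Xcl1 and Tnfaip3. In the restricted subset 28 of 1395 genes (2.01%) were lower and 94 (6.74%) higher. Of 9 naive genes measured there, Dapl1, Il7r and Satb1 were lower, with a median of -0.86. Il7r was 0.243 (0.186 to 0.314) times D0 in all T cells and 0.470 (0.285 to 0.752) times in that subset, which held 25 UMIs of it in 13 of 47 cells. Lef1 and Ccr7 were each 0.389 (0.162 to 0.840) times D0 in it, while Tcf7 at 0.594 (0.263 to 1.26) could not be told from D0. In the subset at D4 the leukocyte genes themselves had a median of -0.38 and the tubule markers stood higher than at D0, as given above.

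Within Cd8a-only cells the thinned share with an Il7r UMI was 32.8% (21.6 to 45.7) at D0, 18.1% (12.5 to 25) at D1, 7.27% (2.02 to 17.6) at D4 and 3.23% (0.0816 to 16.7) at D7. In Cd4-only cells it was 32.4% (17.4 to 50.5) at D0 and 35.6% (25.6 to 46.6) at D1, with 0 of 13 at D4, which allows up to 23.1%. Unthinned, 42.2% of Cd8a-only cells at D0 and 41.8% at D1 held one. The thinned intervals of D0 and D1 overlap, and those of D4 and D7 lie below that of D0. The thinned D4 and D7 values stand beside the larger carried load there, and its part in them was not tested. In the restricted subset, which was not split by class, Il7r was 0.470 (0.285 to 0.752) times D0 at D4. At D7 it was 0.910 (0.607 to 1.35) times D0 there. Background, in barcodes chosen without Cd3 UMIs, was lower than any of these at D0, with 4 of 10576 proximal tubule barcodes (0.0378%) and 0 of 193 B cells after thinning.

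**Figure D5:**
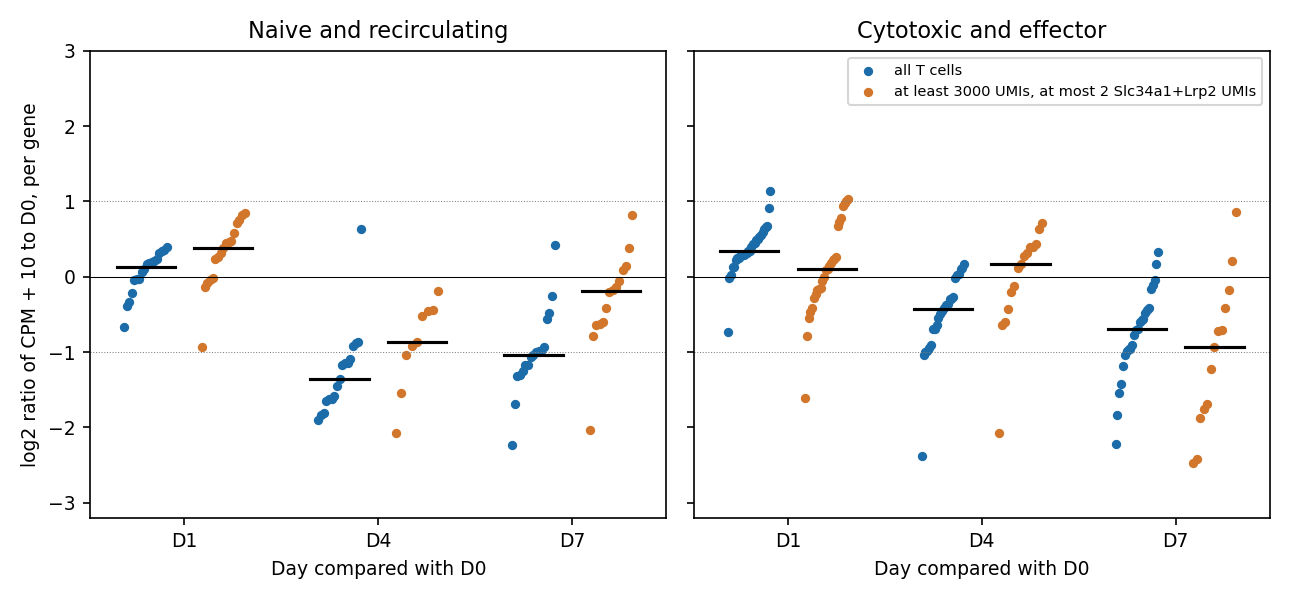
Log2 ratio to D0 of the measured genes of the naive and recirculating list and of the cytotoxic and effector list, 1 point per gene, at D1, D4 and D7, with lines at the medians. In all T cells the naive list lies at -1.35 at D4 and -1.04 at D7, and in the restricted subset at -0.86 and -0.19.

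The cytotoxic genes at D4 had few members past the fold. Of 24 measured, 2 were at least 2-fold lower and none higher, with a median of -0.43, 0.36 on the leukocyte scale and 0.17 in the restricted subset. Gzma was 1.12 (1.01 to 1.24) times D0 in all T cells and 1.65 (1.43 to 1.90) times in the subset, where 100 of its 441 UMIs at D4 came from 1 cell. Gzmb was 0.99 (0.781 to 1.25) times and in the subset 1.37 (0.980 to 1.91) times. Ccl5 had 3833 CPM, 0.770 (0.738 to 0.802) times D0. Ifng was 0.451 (0.331 to 0.607) times D0 but 1.62 (0.864 to 3.08) times in the subset. Xcl1 was the member at least 2-fold lower in each setting.

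Genes of the T cell receptor and its proximal signalling had 12 of 19 members lower at D4 beside 3.72% of all genes, with a median of -1.09, and none lower at D1, with a median of 0.24. The list includes Cd3d and Cd3e, on which the cells were selected. Its counts and medians are thus not independent of the rule, and no count without the rule genes is given here. On the leukocyte scale 2 of 19 were lower at D4 beside 0.193%. With at most 2 UMIs of Slc34a1 and Lrp2 alone 8 of 19 were lower beside 6.64%, Cd3d among them. Of 12 measured in the restricted subset 1 was lower beside 2.01%, the costimulator Cd28, at 0.461 (0.243 to 0.831) times D0. Lat, the adaptor that carries the signal onward, had 265, 396, 107 and 106 CPM, highest at D1, where it was 1.5 (1.30 to 1.72) times D0.

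The cell cycle genes at D4 depended on the scale. In all T cells 1 of 17 was higher beside 3.68% of all genes, none was lower, and the median was 0.12. On the leukocyte scale 8 of 17 were higher beside 33.6%, with a median of 0.90 against 0.76 for all genes. With at most 2 UMIs of Slc34a1 and Lrp2, 5 of 13 were higher beside 9.94% (Birc5, Rrm2, Stmn1, Tyms and Ube2c), with a median of 0.94. Of 11 measured in the restricted subset 1 was higher beside 6.74%, with a median of 0.41. Mki67, a marker of cycling cells, was detected in 2.22%, 1.78%, 4.21% and 4.64% of T cells after thinning, with intervals that overlap, and in 4.35%, 4.19%, 15.3% and 9.27% unthinned. Rrm2, which makes deoxynucleotides for DNA synthesis, had 18, 22, 45 and 33 UMIs. Its D4 ratio was 2.46 (1.39 to 4.51), and 3.67 (1.85 to 7.79) in the restricted subset, where 12 cells held it. At D1 the subset was low in cycle genes: 5 of 15 measured were lower (Mcm5, Mki67, Stmn1, Top2a and Tyms), with a median of -0.58. These rest on few D0 cells: the 47 Top2a UMIs of the subset came from 9 of 53 cells, 20 of them from 1.

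Several of the genes highest at D4 belong to other cells. Of the 148 UMIs of the plasma cell gene Jchain all came from 1 barcode, and of the 42 UMIs of Retnla 40 did. Of 1349 UMIs of red cell genes 1341 came from 1 barcode, and neutrophil markers had 386 UMIs in 8 barcodes. The restricted subset holds such barcodes too. At D4 the UMIs there of Hbb-bs (706), Jchain (148) and S100a9 (77) came from 1 barcode for each gene. The B cell marker Cd74 was 32.4 (16.1 to 76.1) times D0 in it. Of its 317 UMIs of the myeloid gene Lyz2 at D0, 202 came from 1 cell, and its 54 Dcn UMIs at D7 came from 1. The part of such barcodes in the other values, in all T cells or in the subset, was not tested.

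At D7, 153 of 5043 measured genes (3.03%) were at least 2-fold lower than at D0 and 204 (4.05%) higher, and on the leukocyte scale 5 (0.0991%) and 1824 (36.2%). Cytotoxic genes were low in CPM. Of 24 measured, 6 were lower and none higher, with a median of -0.70. In the restricted subset, where 44 of 1295 genes (3.40%) were lower and 43 (3.32%) higher, 6 of 13 cytotoxic genes were lower: Ccl4, Ccl5, Gzma, Klrd1, Ly6c2 and Xcl1, with a median of -0.94. The leukocyte genes themselves had a median of -0.38 in the subset at D7. On the leukocyte scale, over all T cells, the median of the cytotoxic list was 0.04, with 1 gene lower and 2 higher, against 0.82 for all genes.

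Ccl5 had 2654 CPM at D7, the lowest of the 4 days, 0.533 (0.508 to 0.559) times D0 and 0.426 (0.387 to 0.468) times in the subset. Gzma was 0.615 (0.543 to 0.695) times D0, and 0.181 (0.129 to 0.249) times in the subset, where 43 UMIs came from 3 of 37 cells. Ly6c2, a surface protein of memory CD8 T cells, had 466, 554, 230 and 123 CPM, with D7 at 0.264 (0.213 to 0.324) times D0 and 0.286 (0.193 to 0.412) in the subset. The lower cytotoxic levels at D7 stand beside a Cd8a to Cd4 UMI ratio of 1.79 (1.10 to 2.95), against 2.96 (2.08 to 4.26) at D0. The intervals of these ratios, taken over all T cells, overlap. In the subset, Cd8a at D7 was 0.430 (0.224 to 0.776) times D0, from 15 UMIs, and Cd8b1 0.351 (0.240 to 0.503) times. Cd4 there was 1.61 (0.620 to 4.22) times D0, from 10 UMIs at D0 and 11 at D7. Whether the cytotoxic levels follow the class balance was not tested. Within Cd8a-only cells, the thinned share with a Ccl5 UMI was 71.0% at D7 and 68.8% at D0, as given above.

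The naive genes at D7 differed between all T cells and the subset. In all T cells 10 of 17 were lower, with a median of -1.04. In the subset 1 of 14, Dapl1, was lower, with a median of -0.19, and on the leukocyte scale 1 was lower and 1 higher, with a median of -0.19 against 0.82 for all genes. Klf2 was 0.638 (0.517 to 0.784) times D0 in the subset. Il7r was 0.426 (0.341 to 0.528) times D0 in all T cells and 0.910 (0.607 to 1.35) times in the subset. Lef1 went from 0.362 to 1.07 times and Cd28 from 0.453 to 1.10 times in the same way.

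A few genes were higher at D7 in both. Socs3 was 2.76 (1.68 to 4.68) times D0 and 5.11 (2.00 to 15.5) times in the subset. Lgals3 had 61.6, 132, 128 and 151 CPM, 2.45 (1.81 to 3.35) times D0 and 2.33 (1.56 to 3.51) times in the subset. Wfdc17, better known from myeloid cells, was 6.41 (2.85 to 16.9) times D0 with 41 UMIs, and these came from 7 cells. Of the macrophage and monocyte markers, the whole list summed to 698, 644, 549 and 717 CPM. Of its 714 UMIs at D0, 279 came from 1 cell. T cells with any such UMI were 44.6% at D0 and 65.6% at D7 without thinning, beside medians of 2689.5 and 5435 UMIs per cell. The list includes Plac8, Ccr2 and Cx3cr1, which were found in 24, 11 and 9 of the 53 D0 cells of the restricted subset. Its part in Wfdc17 and Lgals3 was not tested.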

How the data were processed

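Kidney cells of 4 mouse libraries, 1 per day of glyoxylate, were profiled by 3' droplet sequencing. The UMI counts per gene and barcode were deposited by the authors, made with Cell Ranger 3.1.0 on mm10 per the submitters' processing notes (the matrices name software 3.0.1 per the file headers). The annotation release is not given in the sources used here. Values are raw counts of 27998 genes, and no column of other samples was present (0).

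The T cells and all gene lists were chosen with earlier results of these data known. UMIs were summed over the T cells of each day and divided by their total (CPM). A gene was measured with at least 40 UMIs in the pair of days and counted as higher or lower past 2-fold of CPM + 10. Ratios carry exact 95% intervals from Poisson counts, shares exact binomial (Clopper-Pearson) ones, and a share of 0 is given with the limit of 3 counts. Proximal tubule barcodes held at least 3 UMIs of Slc34a1 and Lrp2, and B and NK cells at least 2 of their marker UMIs. None of these barcodes held a Cd3d, Cd3e or Cd3g UMI, and the proximal tubule barcodes held no Ptprc UMI either. Thinning drew 1000 UMIs per cell without replacement (seed 7). With 1 library per day no test across samples exists; interval code was tested on simulated data. Library totals were 85009491 to 99337001 UMIs.

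Genes named were the 12 highest and 12 lowest at D1 and the 6 highest and lowest at D4 and D7 whose level was at least 4 times that of proximal tubule barcodes, without ribosomal, mitochondrial, haemoglobin and marker genes, plus up to 4 members per list with the largest D1 change. Other members of the lists named in the text, such as Gzma, Gzmb, Klf2 and Ccl4, and genes named for resting on few barcodes, were chosen after their values were seen. Gene positions are from GENCODE M21. Alternatives were a floor of 3000 UMIs, 25% mitochondrial UMIs, at least 3 Cd3 UMIs, at most 2 UMIs of Slc34a1 and Lrp2, TMM factors (edgeR), leukocyte scaling, tubule RNA subtracted, a pseudocount of 1 and no minimum. The restricted subset (the floor of 3000 UMIs and the limit on Slc34a1 and Lrp2 together), the removal of the top barcode and the leukocyte scale in B and NK cells were added after the data were seen. Software was python 3.11.15, numpy 2.4.6, scipy 1.17.1, pandas 2.3.3, matplotlib 3.10.9, R 4.3.3 and edgeR 4.0.16.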

Additional observations from a re-analysis of the deposited data

How the results depend on the processing

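No paired analysis was possible because each day has 1 library and the days share only the replicate number 1. No library could be left out either, since each is the only one of its day. The T cell share at D0 was 1.11% with a floor of 3000 UMIs, 2.27% with at most 25% mitochondrial UMIs, 1.68% with at least 3 Cd3 UMIs, 1.48% with at most 2 UMIs of Slc34a1 and Lrp2 and 0.538% in the restricted subset. The last 2 gave 3.61% and 3.11% at D1, 0.304% and 0.299% at D4, and 0.311% and 0.270% at D7. In these 2 the limit on Slc34a1 and Lrp2 falls on the T cells and not on the barcodes they are divided by. At least 3 Cd3 UMIs gave 0.876% at D4 and 0.802% at D7. Without thinning the Cd8a-only share was 23.2%, 34.6%, 28.9% and 20.5%. The level of Slc34a1 and Lrp2 in T cells, 32.9%, 25%, 65.1% and 70.3% of that in tubule barcodes, was 46.7% at D0 and 29.1% at D1 with the floor of 3000 UMIs. It was 27.0% at D1 with the mitochondrial limit, and 29.7%, 23.5%, 60.4% and 65.2% with at least 3 Cd3 UMIs.

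For genes past 2-fold higher and lower, 14 and 13 at D1, 190 and 192 at D4 and 204 and 153 at D7, the leukocyte scale gave 7 and 29, 1735 and 10, and 1824 and 5. With tubule RNA subtracted the counts were 272 and 40, 539 and 381, and 549 and 372. The floor of 3000 UMIs gave 49 and 45, 84 and 36, and 111 and 32. A pseudocount of 1 gave 96 and 43, 358 and 348, and 336 and 283. The restricted subset, which tests fewer genes, gave 90 and 31, 94 and 28, and 43 and 44. At most 2 UMIs of Slc34a1 and Lrp2 gave 8 lower at D1 and 105 and 100 at D7, and no minimum gave 310 higher at D7. TMM factors kept all 6 counts within 1.5 times. The median of the innate-like list, -1.20 at D4 and -1.02 at D7, turned to 0.065 and 0.15 without the minimum, which adds genes, and to 0.31 at D7 in the restricted subset. In that subset Lef1, Cd28 and H2-T23 turned to 0.092, 0.14 and 0.051 at D7, Ifng to 0.63 at D4, and the heat shock genes Hspa1b and Hspa1a to -0.69 and -0.19 at D7 on the log2 scale. Hspa1b was -0.23 at D7 with at most 2 UMIs of Slc34a1 and Lrp2. The cause of these turns was not tested. At D4 and D7 the restricted subset holds 47 and 37 cells, against 185 and 141 with the floor of 3000 UMIs alone and 49 and 45 with the limit on Slc34a1 and Lrp2 alone, which limits its precision.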

Other observations

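Interferon-stimulated genes, which rise in many cells after interferon, were near D0 in all T cells at D1: of 34 measured, 1, Rtp4, was at least 2-fold higher and none lower, with a median log2 ratio of 0.05 beside 0.06 for all genes. Isg15 had 20 UMIs at D0 and 39 at D1, 0.932 (0.531 to 1.69) times D0 in CPM. At D4 11 of 23 were lower beside 3.72% of all genes, with a median of -0.99 against 0.02. On the leukocyte scale none was lower beside 0.193%, with a median of -0.29 against 0.76. In the restricted subset at D1, 2 of 25 (Isg20 and Rtp4) were higher beside 2.54% of all genes and none lower. The median there was 0.23 against 0.03. At D4 in the subset, 1 of 11 (Slfn2) was lower beside 2.01%, with a median of -0.70 against 0.04. The class I heavy chain genes H2-K1 and H2-D1, which present peptide to CD8 T cells, had 1751, 2064, 776 and 786 CPM and 1280, 1865, 642 and 653 CPM. None of 18 genes of that list was past 2-fold at D1.

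Regulatory T cells are marked by the transcription factor Foxp3, which was found in 7 of 276, 5 of 477, 5 of 190 and 7 of 151 T cells and in no Cd8a-only cell at D0 or D1. Its level at D1 was 0.279 (0.0930 to 0.768) times that of D0, from 12 and 7 UMIs. It was 0.487 (0.124 to 2.02) times with at most 2 UMIs of Slc34a1 and Lrp2 and 0.473 (0.0678 to 5.23) times in the restricted subset, so the interval reaches 1 in both. The heat shock gene Hsp90aa1, a chaperone, had 648, 482, 700 and 853 CPM. It was 0.744 (0.674 to 0.822) times D0 at D1 in T cells, 0.923 (0.812 to 1.05) times in B cells and 0.955 (0.724 to 1.26) times in NK cells, and the T cell interval overlaps both of the others.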
